A study of Mus musculus with 37 samples.

Results

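The 10 bile acid and organic anion transporter genes of the liver were followed across every dose and both sexes in mice given HFPO-DA (hexafluoropropylene oxide dimer acid), a short-chain perfluoroalkyl substance. The genes were chosen for their function, with earlier results of these data known, and their probes were found by gene symbol. The symbols were Slc10a1, Slco1a1, Slco1a4, Slco1b2, Slco2b1, Abcb11, Abcb4, Abcc2, Abcc3 and Abcc4, and they were read by 20 of the 30146 probes of the targeted assay, with 1 to 3 probes per gene. All 20 passed the filter on low counts, which kept 18570 probes. The mice were wild-type CD1 animals, Crl:CD1(ICR) in the study's methods, dosed once daily by oral gavage with HFPO-DA in deionized water at 0.1, at 0.5 or at 5 mg/kg, or with water alone (0 mg/kg). Males started at 6 weeks of age and received 84 to 85 doses, from 70 days before mating to the end of the mating period. Females were dams that started at 11 weeks of age and received 53 to 65 doses, from 14 days before mating to lactation day 20 or 21. Sex, age, number of doses and lactation therefore cannot be told apart in any comparison of males with females. After dosing, livers were fixed in 10% formalin and cut to 4 to 6 µm sections. RNA from the mounted, unstained sections was counted by TempO-Seq, in which a pair of detector oligos is ligated on its target and sequenced. There were 5 males in each of the control, 0.1 and 0.5 mg/kg groups and 4 at the highest dose, and 5 females in the control and 0.1 mg/kg groups and 4 in each of the others.

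Bile acids circulate between the gut and the liver, and the hepatocyte takes them from portal blood at its basolateral face and pumps them into the bile canaliculus at its apical face. Slc10a1 encodes NTCP, the sodium-dependent bile acid carrier, and the Slco genes encode OATP carriers that take up bilirubin, steroid conjugates, drugs and unconjugated bile acids without sodium. Abcb11 (the bile salt export pump), Abcb4 (the phosphatidylcholine floppase) and Abcc2 (MRP2, which exports glutathione and glucuronide conjugates) act at the canaliculus. Abcc3 (MRP3) and Abcc4 (MRP4) return conjugates and bile acids across the basolateral face to blood.

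Each mouse had 2101495 to 13878254 counts over all probes, with medians of 7780828 in the 19 males and 10479002.5 in the 18 females. The 4 mice under 5000000 counts were all males, 1 at 0.1 mg/kg, 1 at 0.5 mg/kg and 2 at 5 mg/kg, so that the 5 mg/kg males held the shallowest libraries. Summed markers of hepatocytes, such as Alb and Ttr, lay between 13684 and 28756 counts per 1000000 counts of the scaled library (CPM) in every mouse. The sums of the cholangiocyte, macrophage, endothelial, stellate and lymphocyte markers reached at most 954.8 CPM. Probes differ in efficiency, so sums of different lists do not compare amounts of cells. No marker of those lists was at 0 in all mice, but Epcam had counts only among the 5 mg/kg males. Of the 10 cholangiocyte markers 7 passed the filter.

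In the GENCODE M21 annotation of GRCm38, Slc10a1 lies on the minus strand of chromosome 12 (80953183-80968705), Slco2b1 on the minus strand of chromosome 7 (99657804-99711340) and Abcb11 on the minus strand of chromosome 2 (69238282-69342616). Slco1b2 (141629518-141686646, plus strand), Slco1a4 (141805440-141856199, minus strand) and Slco1a1 (141907282-141946962, minus strand) are neighbours on chromosome 6. Abcb4 is on chromosome 5 (8893717-8959231, plus strand), Abcc2 on chromosome 19 (43782192-43840740, plus strand), Abcc3 on chromosome 11 (94343295-94392997, minus strand) and Abcc4 on chromosome 14 (118482692-118706219, minus strand). The positions of the probes inside these genes are not given in the sources used here. Of all 50-base windows in their transcripts, 1.64% in Slco1a1, 1.61% in Slco1a4 and 1.47% in Abcb4 also occur in a close relative (Slco1a5 and Slco1a6 for the first pair, which also share windows with each other, and Abcb1a and Abcb1b for Abcb4). A probe on such a window would read more than 1 gene.

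Promoter windows are shown for the 3 uptake genes that fell at 5 mg/kg in males and for Abcc4, which rose. Abcb4 and a probe of Abcb11 were also called there, but their windows, which held neither motif marked below, are not shown. The RefSeq promoter table of GRCm38.p6 held 13 windows for 9 of the 10 genes, and the 250 bases before each start were searched on both strands for 4 motifs known from liver genes. The STAT5 palindrome TTCNNNGAA was found in 3 of the 13 windows, of Slc10a1, Slco1b2 and Slco2b1, against 7.02% of all 32851 windows. A gene with more windows had more chances to match. The nuclear receptor half-site AGGTCA was found in 5 of the 13, of Slc10a1, Slco1a1, Slco1b2, Abcb11 and Abcc2 (14% of all windows). For Slc10a1 it lay in the window of its second start, which is not shown. The HNF1 half-site GTTAAT was found in 1 of the 13, of Slco1b2 (6.43%). The antioxidant response core TGACNNNGC was found in 3 of the 13, of Abcc2 and Abcc4 (10.2%). Capitals mark TTCNNNGAA in the first 3 sequences and TGACNNNGC, here on the opposite strand, in Abcc4, and all are written 5′ to 3′ along the gene. The windows are chr12:80968706-80968955 for Slc10a1, chr6:141629268-141629517 for Slco1b2, chr7:99695810-99696059 for an internal start of Slco2b1 and chr14:118706220-118706469 for Abcc4. The other windows of the first 3 genes held no TTCNNNGAA, namely those before 2 further Slco2b1 starts (chr7:99711341-99711590 and chr7:99706843-99707092) and before a second Slc10a1 start (chr12:80968080-80968329). A second Abcc4 window (chr14:118676932-118677181) also held TGACNNNGC and is not shown.
Slc10a1: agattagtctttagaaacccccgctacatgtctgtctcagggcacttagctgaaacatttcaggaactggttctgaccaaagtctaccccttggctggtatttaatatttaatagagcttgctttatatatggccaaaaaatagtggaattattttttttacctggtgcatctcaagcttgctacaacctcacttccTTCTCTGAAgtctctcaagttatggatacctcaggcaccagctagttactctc
Slco1b2: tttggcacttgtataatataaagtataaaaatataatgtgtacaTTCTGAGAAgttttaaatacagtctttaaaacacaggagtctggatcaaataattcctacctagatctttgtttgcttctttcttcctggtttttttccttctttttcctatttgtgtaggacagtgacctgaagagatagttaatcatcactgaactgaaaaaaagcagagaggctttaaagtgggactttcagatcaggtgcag
Slco2b1: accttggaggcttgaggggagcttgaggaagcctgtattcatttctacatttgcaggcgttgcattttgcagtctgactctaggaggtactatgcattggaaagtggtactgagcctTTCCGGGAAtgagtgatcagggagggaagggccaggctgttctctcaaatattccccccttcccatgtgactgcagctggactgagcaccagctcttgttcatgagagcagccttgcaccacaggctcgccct
Abcc4: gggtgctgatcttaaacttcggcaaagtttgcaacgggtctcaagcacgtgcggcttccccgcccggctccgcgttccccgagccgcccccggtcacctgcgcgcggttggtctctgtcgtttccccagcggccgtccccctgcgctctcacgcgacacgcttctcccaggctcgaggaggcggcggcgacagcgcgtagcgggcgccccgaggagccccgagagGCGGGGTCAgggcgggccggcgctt
A match of letters is a description of the window and was not tested for binding.

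At the highest dose Slc10a1 and Slco2b1 fell in both sexes, and in males Slco1b2 and a probe of Abcb11 fell and Abcb4 and Abcc4 rose, while Slco1a1, Slco1a4, Abcc2 and Abcc3 passed in neither sex. At 5 mg/kg in males, 8 of the 20 probes passed an adjusted p of 0.10, 5 of them lower (Slc10a1 with 2 probes, Slco1b2, Slco2b1 and Abcb11) and 3 higher (Abcb4 and 2 probes of Abcc4). Over all 18570 probes, 8.49% were called lower and 4.21% higher in that comparison. The male count was 6 (5 lower, 1 higher) with males fitted alone and 10 (7 lower, 3 higher) with DESeq2. Over all probes, 755 were lower and 365 higher of 16103 tested with males alone, and 1696 lower and 1134 higher of 17946 with DESeq2. At 5 mg/kg in females, 3 probes were called, all lower (2 of Slc10a1 and 1 of Slco2b1), where 2.26% of all probes were lower and 2.26% higher. In females the count also depended on the fit. When females were fitted without the males 10 of the 20 probes passed (8 lower, 2 higher), and with DESeq2 6, all lower. The calls over all probes rose in these fits too. They were 1152 lower and 941 higher of 17038 tested with females alone, and 640 lower and 624 higher of 10277 with DESeq2. The count of transporter probes in females was 7 without 5 mg/kg replicate 4, 5 without control replicate 3 and 1 without 5 mg/kg replicate 2. The median log2 fold change of the 20 probes was -0.48 in males and -0.46 in females, against -0.12 and -0.01 over all probes. In 4 of the 20 probes every treated male of this dose was lower than every control, as it was in 4.8% of all probes, and in females this held in 5 of the 20, against 4.31%. Scaling by total counts without TMM factors moved the median of all probes in males from -0.12 to 0.08, and the calls over all probes went from 33.1% to 54.9% higher, while the same 5 transporter probes stayed lower.

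**Figure D1:**
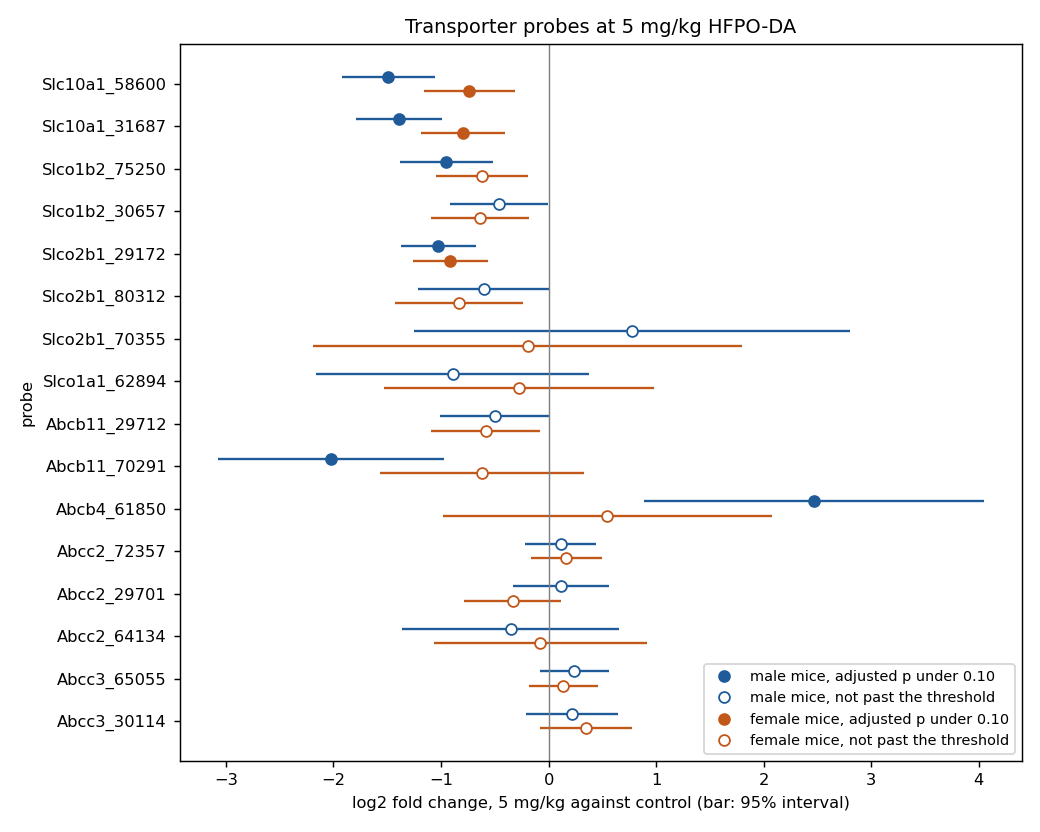
Log2 fold change (x axis) of 16 transporter probes (y axis) at 5 mg/kg HFPO-DA against the control of the same sex, with approximate 95% intervals from the SE and a normal quantile, and filled points for an adjusted p under 0.10. The Slc10a1 probes lie at -1.49 and -1.39 in males and at -0.74 and -0.79 in females, and the Slco1a4 and Abcc4 probes are left out because some groups hold almost no counts.

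Slc10a1, the main carrier of conjugated bile acids into hepatocytes, fell in both sexes at 5 mg/kg. In male controls its lead probe, that with the most counts, read 237, 288, 301, 303 and 329.7 CPM, and in the 5 mg/kg males 61.1, 86.7, 113 and 153 CPM. The groups did not overlap, and the control mean was 292 ± 34.03 CPM (SD, n = 5) and the treated mean 103 ± 39.1 CPM (SD, n = 4), a log2 fold change of -1.49 ± 0.22 (SE) or 2.81-fold lower (adjusted p = 4.89e-06). In females the controls read 249.6, 304, 304, 337 and 433 CPM and the 5 mg/kg mice 116, 199, 219.9 and 247 CPM. Every treated female lay below every control, though the highest treated female was close to the lowest control, and the log2 fold change was -0.74 ± 0.21 (SE) or 1.66-fold lower (adjusted p = 0.042). That call in females was lost without control replicate 1 (adjusted p = 0.153), without 5 mg/kg replicate 1 (0.101) or without 5 mg/kg replicate 2 (0.256). The other Slc10a1 probe gave -1.39 ± 0.20 (SE) in males (adjusted p = 4.72e-06) and -0.79 ± 0.20 (SE) in females (adjusted p = 0.012), again with no overlap in either sex. That probe lost its call in females without 5 mg/kg replicate 2 (adjusted p = 0.107). At 0.1 and 0.5 mg/kg the lead probe stayed between 187 and 383 CPM in males and between 271 and 446 CPM in females, overlapping the controls. From highest to lowest, the group means ran through females at 0.5 mg/kg (359.6 CPM), 0.1 mg/kg (352) and no HFPO-DA (325), males at 0 (292), at 0.5 (274) and at 0.1 mg/kg (257), females at 5 mg/kg (195) and males at 5 mg/kg (103), and neighbours in this order overlapped. In a section of whole liver, fewer hepatocytes and less RNA per hepatocyte cannot be told apart.

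Slco1b2 encodes the liver-specific OATP carrier of bilirubin, drugs and bile acids. Its lead probe read 153, 154, 210.2, 238 and 293 CPM in male controls and 73.9, 111, 111 and 137 CPM in the 5 mg/kg males. No treated male reached the lowest control, and the log2 fold change was -0.95 ± 0.22 (SE), 1.93-fold lower (adjusted p = 0.00313). The second probe did not pass in males (-0.46 ± 0.23 (SE), adjusted p = 0.223), although it passed without 5 mg/kg replicate 4 (-0.68, adjusted p = 0.0819). In females the lead probe read 156, 216, 223, 236 and 254 CPM in controls and 96.03, 117, 119 and 233 CPM at 5 mg/kg. Of the 4 treated females 3 lay below every control and 1, replicate 4, lay among the upper controls. The fold change of -0.62 ± 0.22 (SE) did not pass (adjusted p = 0.128), and without replicate 4 it was -0.97 (adjusted p = 0.00366). It also passed without control replicate 3 (adjusted p = 0.0607). The second probe gave -0.63 ± 0.23 (SE) in females (adjusted p = 0.16) and passed without the same mice (adjusted p = 0.0332 and 0.0463). Both probes also passed in females with DESeq2 (adjusted p = 0.0377 and 0.0581).

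Slco2b1, an OATP carrier of sulfated steroids and drugs, fell in both sexes at 5 mg/kg. The lead probe read 142, 169, 193, 197 and 206 CPM in male controls and 61.3, 94.1, 97.5 and 104 CPM at 5 mg/kg, with no overlap and a log2 fold change of -1.02 ± 0.18 (SE) (adjusted p = 8.06e-05). In females it read 205, 239, 269.7, 299 and 306 CPM in controls and 108, 130.1, 149 and 173 CPM at 5 mg/kg, again with no overlap and a change of -0.91 ± 0.18 (SE) (adjusted p = 5.99e-04). Both calls held in every alternative fit and with any mouse left out. In males the group means stepped down with dose, from 181 CPM in controls to 148 at 0.1, 132 at 0.5 and 89.2 at 5 mg/kg, but the changes at 0.1 mg/kg (-0.29 ± 0.16 (SE), adjusted p = 0.81) and 0.5 mg/kg (-0.46 ± 0.16 (SE), adjusted p = 0.299) did not pass. In females the means of 264, 210.1, 240.2 and 140.04 CPM, from control to highest dose, did not step down in order. The second probe gave -0.60 ± 0.31 (SE) in males and -0.83 ± 0.30 (SE) in females (adjusted p = 0.233 and 0.16), and passed in both without the mice under 5000000 counts (adjusted p = 0.0352 and 0.0795). The third, at most 9.43 CPM in any mouse, gave 0.78 ± 1.03 (SE) and -0.19 ± 1.02 (SE) (adjusted p = 0.738 and 1).

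Slco1a1, an OATP carrier that is known to be higher in males than in females in mouse liver, spread widely between mice. The 5 mg/kg males read 68.96, 77.3, 78.96 and 106 CPM against 104, 107, 127, 184 and 245 CPM in their controls, which overlapped through 1 treated mouse, and the fold change of -0.89 ± 0.65 (SE) did not pass (adjusted p = 0.446). It passed when males were fitted without the females (-0.91, adjusted p = 0.0422). Females ranged from 1.499 to 96.1 CPM in controls and from 12.1 to 61.8 CPM at 5 mg/kg (-0.28 ± 0.64 (SE), adjusted p = 1).

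Slco1a4, an OATP carrier of bile acids and cardiac glycosides, was read by few counts. Its lead probe had 0, 0, 1, 14 and 20 counts in the 5 male controls and 0 in each of the 4 males at 5 mg/kg. With a floor of 3 counts over the group in place of 0, the pooled level at 5 mg/kg was 6.88-fold lower than in controls. That figure takes the control level as exact and is not a lower limit. The counting interval for the pooled ratio of treated to control reached up to 0.189, a smaller fall, and covers counting error only. Nearly all of the control counts came from the males with 14 and 20 counts. The 5 mg/kg males were also the group with 2 libraries under 5000000 counts, and 2 of the 5 male controls were at 0 as well. In females the controls read 2.56, 4.31, 10.7, 10.7 and 15.3 CPM and the 5 mg/kg mice 0, 0, 0.365 and 2.04 CPM, without overlap. From control to highest dose the lead-probe means of the female groups were 8.73, 9.38, 2.40 and 0.602 CPM. Neither comparison passed (adjusted p = 0.102 in males and 0.184 in females), while the female one passed with females fitted alone (adjusted p = 0.0124) and without 5 mg/kg replicate 4 (adjusted p = 0.065). In males it passed with DESeq2 (adjusted p = 0.0556) and with no filter on low counts (adjusted p = 0.0606). It also passed in males without control replicate 2 (adjusted p = 0.0826), control replicate 4 (0.0819) or control replicate 5 (0.0984). The second probe was at 0 in 3 of the 4 males at 5 mg/kg and in 2 of the 5 male controls, and did not pass in either sex (adjusted p = 0.123 and 0.862). In males it passed with DESeq2 (adjusted p = 0.0562) and without control replicate 3, control replicate 4 or 5 mg/kg replicate 1 (adjusted p = 0.0874, 0.09 and 0.0798).

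**Figure D2:**
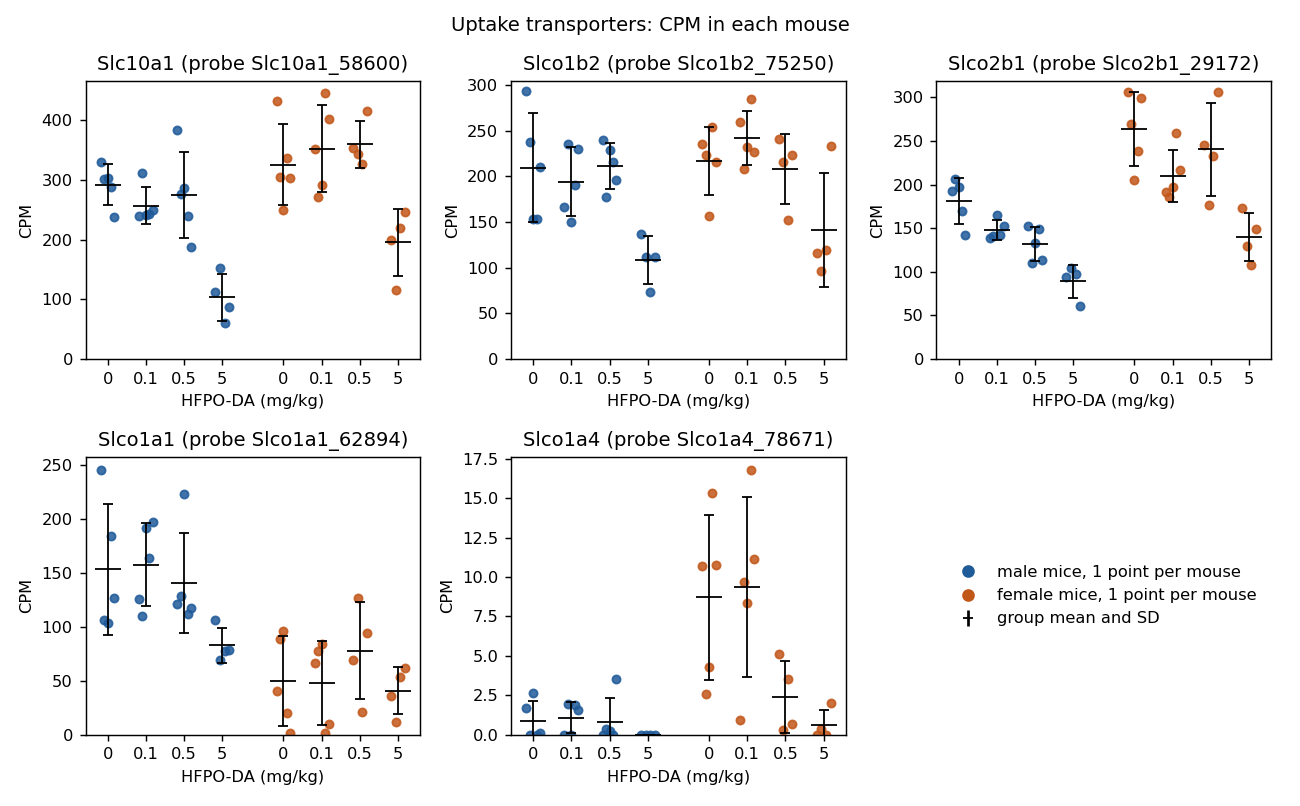
CPM (y axis, linear, from 0) of the lead probe of the 5 uptake genes in each mouse, by dose of HFPO-DA (x axis) in males (left of each panel) and females (right), with group means and SDs. Slc10a1 and Slco2b1 at 5 mg/kg lie below all controls in both sexes, and Slco1a4 sits below 4 CPM in every male.

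At the canalicular face, Abcb11 had 2 probes with negative fold changes at 5 mg/kg in both sexes, of which only the second was called, in males. The lead probe read 349, 375, 436, 442 and 509 CPM in male controls and 175, 264, 268 and 485 CPM at 5 mg/kg. Of the 4 treated males 3 lay below all controls and replicate 4 among the highest, and the change of -0.50 ± 0.26 (SE) did not pass (adjusted p = 0.237). Without that mouse it was -0.86 (adjusted p = 0.0367). In females the controls read 494, 542, 552, 657 and 665 CPM and the 5 mg/kg mice 285, 299.8, 386 and 580.4 CPM, where again 3 lay below all controls and replicate 4 among them (-0.59 ± 0.26 (SE), adjusted p = 0.308). Without female replicate 4 the change was -0.85 (adjusted p = 0.0969). The second probe fell in males, from 8.17, 11.4, 16.1, 17.3 and 17.5 CPM in controls to 0, 1.08, 2.54 and 10.1 CPM at 5 mg/kg (-2.02 ± 0.54 (SE), adjusted p = 0.0116). The value of 0 came from replicate 3, the library with the fewest counts of all, and without the mice under 5000000 counts the change was -2.95 (adjusted p = 3.62e-04). With males fitted alone it did not pass (adjusted p = 0.105). In females that probe gave -0.62 ± 0.48 (SE) (adjusted p = 0.809).

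Abcb4, which moves phosphatidylcholine into bile, rose in males at 5 mg/kg. Its single probe read 0, 2.14, 3.24, 3.37 and 3.59 CPM in controls, 0.761, 1.78, 3.83, 5.77 and 8.10 CPM at 0.1, 0, 2.98, 7.03, 11.6 and 11.8 CPM at 0.5 and 8.16, 11.1, 16.9 and 19.1 CPM at 5 mg/kg. The highest-dose males all lay above the controls, and the log2 fold change was 2.47 ± 0.81 (SE) (adjusted p = 0.0477). The call was lost with males fitted alone (adjusted p = 0.145), without the mice under 5000000 counts (1.91, adjusted p = 0.172) and without 5 mg/kg replicate 1 (adjusted p = 0.105). In females the 5 mg/kg mice read 1.19, 1.58, 6.04 and 9.92 CPM against 0.787, 1.57, 1.58, 3.75 and 8.29 CPM in controls, with overlap (0.55 ± 0.78 (SE), adjusted p = 1).

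Abcc2 did not pass the test at the highest dose, where its lead probe gave 95% intervals of -0.22 to 0.44 in males and -0.16 to 0.49 in females on the log2 scale. At that dose the other probes, Abcc2_29701 and Abcc2_64134, gave 0.11 ± 0.23 (SE) and -0.35 ± 0.52 (SE) in males. In females they gave -0.33 ± 0.23 (SE) and -0.08 ± 0.50 (SE), and none of these passed. The highest group means of the lead probe were at lower doses. This did not hold for Abcc2_64134 in males, where the control mean of 15.7 CPM was the highest. With the lead probe, male controls read 216, 294, 329.9, 345 and 458 CPM and the 0.5 mg/kg males 458, 470.5, 501, 513 and 527 CPM. All of the latter lay above the highest control by a small margin (0.59 ± 0.16 (SE), adjusted p = 0.0997). Taking out any mouse of these groups but control replicate 1 moved that adjusted p above 0.10, up to 0.273 without control replicate 3, and with males fitted alone it was 0.423. In females the 0.1 mg/kg mice read 493, 511, 563, 641 and 649.6 CPM against 308, 342, 351, 378 and 384 CPM in controls. Every one lay above every control, yet the change of 0.70 ± 0.16 (SE) did not pass over all probes (adjusted p = 0.701), and it did with DESeq2 (adjusted p = 0.0567). The other probes of Abcc2 gave 0.47 ± 0.22 (SE) and 0.47 ± 0.47 (SE) in the females at 0.1 mg/kg and 0.16 ± 0.21 (SE) and -0.20 ± 0.48 (SE) in the males at 0.5 mg/kg, and none of these passed.

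At the basolateral face, Abcc3 and Abcc4 differed in how closely they were measured. The Abcc3 lead probe read 833, 909, 969.7, 1119.8 and 1132 CPM in male controls and 1001, 1149.7, 1208 and 1329.5 CPM at 5 mg/kg, which overlapped, with a 95% interval of -0.08 to 0.56 for the log2 fold change. In females the interval was -0.18 to 0.46. Neither passed (adjusted p = 0.401 and 0.972), though the male one passed with no TMM factors (0.46, adjusted p = 0.0348). The second Abcc3 probe gave 0.22 ± 0.22 (SE) and 0.34 ± 0.22 (SE), and did not pass either (adjusted p = 0.631 and 0.647).

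Abcc4 was barely read in male controls and rose in males at 5 mg/kg. Counts of its lead probe were 0, 0, 0, 0 and 6 in the 5 male controls and 0, 0, 5, 26 and 29 in the males at 0.1 mg/kg. They were 0, 12, 17, 35 and 39 in the males at 0.5 mg/kg and 1, 25, 62 and 68 in the 4 males at 5 mg/kg. It was thus detected in 1 of 5, 3 of 5, 4 of 5 and 4 of 4 males, although the 5 mg/kg males had the lowest median depth, 5117935 counts. The pooled level at 5 mg/kg was 44.1-fold (95% counting interval 19.8 to 122) that of controls, an interval that covers counting error only, and the 2 groups still overlapped through the treated male with 1 count (adjusted p = 0.00392). The second probe had 0, 0, 0, 0 and 1 counts in controls and 0, 0, 32 and 33 at 5 mg/kg (adjusted p = 0.00566), so that its higher level there rested on 2 of the 4 mice, and it did not pass with males fitted alone (adjusted p = 0.118). At 0.5 mg/kg the second probe passed (adjusted p = 0.0878) and the lead probe did not (adjusted p = 0.114), against 0.382% of all probes called higher and 0.242% lower. The second-probe call was lost without any of the male controls (adjusted p up to 0.189 without replicate 2) or without 0.5 mg/kg replicate 1, 4 or 5 (adjusted p = 0.134, 0.171 and 0.107). The lead probe passed without control replicate 2 (adjusted p = 0.0263) or 0.5 mg/kg replicate 3 (adjusted p = 0.0582), and with DESeq2 (adjusted p = 0.00884). Female controls already read 1.28, 2.72, 3.17, 4.00 and 5.76 CPM, and the 5 mg/kg females read 7.40, 8.05, 11.7 and 14.5 CPM, all above the controls (1.62 ± 1.01 (SE), adjusted p = 0.638). With females fitted alone the lead probe passed (adjusted p = 0.059).

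**Figure D3:**
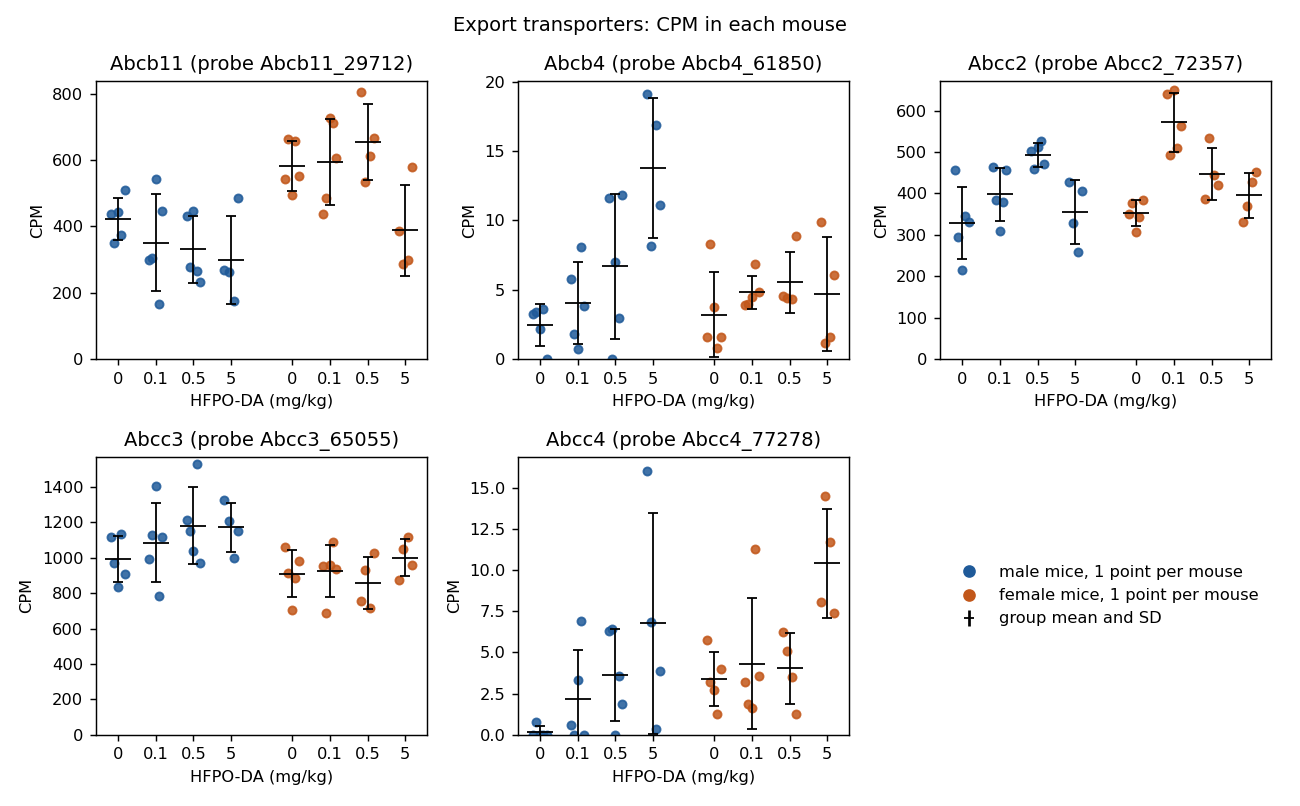
CPM (y axis, linear, from 0) of the lead probe of the 5 export genes in each mouse, by dose of HFPO-DA (x axis) in males (left of each panel) and females (right), with group means and SDs. Abcb4 and Abcc4 are low throughout, at most 19.1 and 16.04 CPM, and the highest Abcc2 means are at 0.5 mg/kg in males (494 CPM) and 0.1 mg/kg in females (572 CPM).

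Below 5 mg/kg few transporter probes were called. In males at 0.5 mg/kg they were the 2 already named, Abcc2 and the second Abcc4 probe, and no transporter probe was called at 0.1 mg/kg in males, where edgeR called 0% of all probes. In females none was called at 0.5 mg/kg (0.113% of all probes) or at 0.1 mg/kg (0%). At an unadjusted p under 0.05, 5 of the 20 probes passed in males at 0.5 mg/kg (10.3% of all probes) and 2 in males at 0.1 mg/kg (7.14%). In females 1 passed at 0.5 mg/kg (4.33%) and 2 at 0.1 mg/kg (2.38%). DESeq2 called 1 transporter probe at 0.1 mg/kg in females, the lead probe of Abcc2, and 3, all higher, at 0.5 mg/kg in males. It called 0 at 0.1 mg/kg in males and at 0.5 mg/kg in females.

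The response to 5 mg/kg was not shown to differ between the sexes for any transporter probe by the test of the interaction, which called 0.63% of all probes. At an unadjusted p under 0.05 there were 4 of the 20 probes, both of Slc10a1 and both of Abcc4, against 10.7% of all probes. For Slc10a1 the male response minus the female response was -0.76 ± 0.30 (SE) on the log2 scale, with a 95% interval of -1.35 to -0.17 (adjusted p = 0.371). For the Abcc4 probes, with almost no counts in male controls, it was 3.70 ± 1.58 (SE) and 4.91 ± 1.88 (SE), fitted values that depend on the prior count (adjusted p = 0.393 and 0.344). For Slco2b1 it was -0.11 ± 0.25 (SE), with an interval of -0.59 to 0.37 (adjusted p = 0.977), and for Slco1b2 -0.33 ± 0.30 (SE), with an interval of -0.93 to 0.26 (adjusted p = 0.813). The second Abcb11 probe gave -1.40 ± 0.70 (SE) (adjusted p = 0.479) and passed without male 5 mg/kg replicate 1 (adjusted p = 0.0512) or without the mice under 5000000 counts (adjusted p = 0.0757). The interaction at 0.5 mg/kg called 0.0108% of all probes and no transporter probe, with 2 of the 20 at an unadjusted p under 0.05, both of Abcc4, against 5.13% of all probes.

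Control males and control females differed in 4 of the 20 probes. Both Abcc4 probes and the lead Slco2b1 probe were lower in males and the Abcc2_29701 probe was higher, where 1.36% of all probes were lower in males and 1.24% higher. Abcc4 was read in every control female but in 1 of 5 control males by each probe, and all males lay below all females (adjusted p = 0.0473 for the lead and 0.0148 for the second probe). The lead-probe call was lost without any 1 of the 4 male controls at 0, with an adjusted p up to 0.14 (without replicate 3). Slco2b1 read 181 CPM in control males and 264 CPM in control females (-0.54 ± 0.16 (SE), adjusted p = 0.0894), a call kept only without male replicate 2 (adjusted p = 0.0983) or female replicate 3 (adjusted p = 0.0577) among the 10 fits with 1 mouse left out. The Abcc2_29701 probe read 47.1, 47.5, 57.5, 62.8 and 71.2 CPM in control males and 27.4, 28.9, 37.4, 37.99 and 40.9 CPM in control females (0.73 ± 0.22 (SE), adjusted p = 0.0762), while the Abcc2 lead probe gave -0.10 ± 0.16 (SE) (adjusted p = 0.992). Its call was lost without male replicate 1, 4 or 5 or female replicate 1, 2 or 5, with an adjusted p up to 0.217 without female replicate 5. With no TMM factors the Abcc2_29701 probe did not pass (0.61, adjusted p = 0.17). That scaling moved the median of all probes from -0.06 to -0.18 and the calls over all probes from 47.6% to 24.3% higher in males. Slco1a1 lay higher in every control male than in every control female (1.63 ± 0.61 (SE)) but did not pass (adjusted p = 0.227), except with no filter on low counts (adjusted p = 0.0258), and Slc10a1 (-0.16 ± 0.20 (SE)) and Slco1b2 (-0.05 ± 0.20 (SE)) did not pass either (adjusted p = 0.973 and 1).

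Over the 37 mice, the lead probes of Slc10a1 and Slco1b2 followed each other with a Pearson r of 0.83 (0.59 for the deviations from group means), and those of Slc10a1 and Slco2b1 with an r of 0.79 (0.43). The mice share dose groups and depth, so these are descriptions. Outside the 10 genes, the probes most like Slc10a1 were those of F5 (r = 0.90, and 0.73 for deviations from group means), Hsd11b1 (0.89 and 0.46) and F7 (0.88 and 0.56), of which F5 and F7 encode coagulation factors made in hepatocytes. The probes most like Slco2b1 were those of the plasma proteins Kng1 (0.90 and 0.44), Hgfac (0.89 and 0.37) and Serpinc1 (0.89 and 0.45), and the one most like Slco1b2 was that of Cyp2e1 (0.89 and 0.77). Slco1a1 was most like 3 probes of the major urinary proteins, Mup19 (0.80 and 0.70), Mup16 (0.79 and 0.67) and Mup7 (0.79 and 0.70), a family of near-identical genes whose probes cannot be told apart with certainty. Abcb11 was most like Gckr (0.85 and 0.72) and Slco1a4, with its few counts, Pde6c (0.82 and 0.54), and the highest r for Abcb4, Abcc2, Abcc3 and Abcc4 were 0.73, 0.63, 0.73 and 0.73 (0.72, 0.50, 0.62 and 0.50 for deviations from group means).

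Other genes of bile acid and anion handling were taken from 5 lists. At 5 mg/kg, 8.49% of all probes were called lower and 4.21% higher in males, and 2.26% lower and 2.26% higher in females. Among bile acid synthesis genes at 5 mg/kg in males, 9 of 18 tested fell, 1 rose and 8 did not pass, with a median log2 fold change of -0.92 against -0.12 over all probes. The 4 with the smallest adjusted p were Cyp2c70, which makes muricholic acids in mice (from 808 ± 220.5 to 148 ± 49.7 CPM, -2.45 ± 0.24, adjusted p = 7.48e-10), the steroid reductase Akr1d1 (-2.13 ± 0.26), Akr1c6 (-1.55 ± 0.22) and the oxysterol hydroxylase Cyp39a1 (from 7.27 ± 3.83 to 0.145 ± 0.224 CPM). In females 4 of 18 fell, 3 rose and 11 did not pass, with a median of -0.14 against -0.01. Those named by the same rule were the peroxisomal Hsd17b4, which rose (1.09 ± 0.15), Cyp2c70, which fell from 1511 ± 243 to 609.8 ± 104 CPM (-1.31 ± 0.23), Scp2, which rose (0.71 ± 0.14), and Akr1c6, which fell (-0.95 ± 0.21).

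Of 16 other uptake carriers, 2 rose and 2 fell in males at 5 mg/kg (median -0.50), and 2 fell and none rose in females (median -0.27). The shares over all probes were 4.21% higher and 8.49% lower in males, and 2.26% each way in females. The monocarboxylate carrier Slc16a1 rose in males from 125 ± 27.2 to 397 ± 89.9 CPM (1.67 ± 0.24, adjusted p = 3.67e-06), as did Slc22a18 (0.78 ± 0.29), while the prostaglandin carrier Slco2a1 fell (-0.97 ± 0.20). The organic anion carrier Slc22a7 (OAT2) fell in both sexes, from 8.43 ± 2.54 to 0.827 ± 1.65 CPM in males (adjusted p = 0.047) and from 4.82 ± 2.29 CPM to 0 in each of 4 females (adjusted p = 3.27e-04). Slc10a2, the sodium-dependent bile acid carrier of cholangiocytes and ileum, fell in females from 29.97 ± 12.7 to 8.26 ± 3.16 CPM (-1.86 ± 0.46, adjusted p = 0.0113). In females Slc16a10 (-0.84 ± 0.31) and Slc10a5 (-1.28 ± 0.53) did not pass.

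Of 16 other exporters and their partners, 2 rose and 2 fell in males (median -0.13), and 2 fell in females (median -0.01). Among all probes 4.21% rose and 8.49% fell in males, and 2.26% fell in females. Multidrug pump Abcb1b rose in males from 101 ± 11.7 to 218 ± 26.1 CPM (1.11 ± 0.19, adjusted p = 7.17e-05), and the urate and drug exporter Abcg2 from 5.20 ± 1.37 to 22.6 ± 9.33 CPM (2.11 ± 0.50, adjusted p = 0.00385). In females Abcb1b gave 0.57 ± 0.19 (adjusted p = 0.103) and the sterol exporter Abcg8 1.06 ± 0.37 (adjusted p = 0.122), neither past the threshold. Abcc6, a hepatocyte exporter, fell in males (-1.07 ± 0.29) and in females (-1.09 ± 0.29).

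Of 20 regulators, 3 fell in males, namely the bile acid receptor Nr1h4 or FXR (-0.53 ± 0.19, adjusted p = 0.0849), Esr1 (-1.91 ± 0.55) and the FGF15 receptor Fgfr4 (-1.02 ± 0.28), and Rxra gave -0.42 ± 0.16 (adjusted p = 0.1002). In females 2 fell, Rxra (-0.55 ± 0.16) and Fgfr4 (-0.88 ± 0.27), while Cebpb (0.74 ± 0.26) and Stat5a (-0.90 ± 0.33) did not pass. Of 17 genes of the apical scaffold and of trafficking to it, 1 fell in each sex: Slc9a3r1, a scaffold for apical transporters, in males (-0.71 ± 0.18) and the tight junction gene Cldn1 in females (-0.998 ± 0.29). Slc9a3r2 (-0.88 ± 0.34), Cldn2 (0.67 ± 0.26) and Ezr, at 0 in all 4 treated males, did not pass in males, nor did Rdx (-0.56 ± 0.21), Cldn2 (0.60 ± 0.26) and Slc9a3r1 (-0.38 ± 0.18) in females. Medians of the regulators were -0.47 in males and -0.32 in females, and those of the apical list -0.44 and -0.29. For both lists, the share of all probes called lower was 8.49% in males and 2.26% in females.

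Some markers of hepatocytes were lower beside the uptake genes. Of 10 hepatocyte markers, 5 fell and none rose in males at 5 mg/kg (median -0.86), and 3 fell and none rose in females (median -0.60). For this and the other marker lists, the shares over all probes were 8.49% lower and 4.21% higher in males. In females they were 2.26% each way, so that few or no calls in a list of 7 or 8 markers say little. Alb (-0.16 ± 0.16), Apoa2 (-0.23 ± 0.15) and Hnf4a (-0.35 ± 0.22) did not pass in males, and Cyp2e1, which went from 5501 to 2300.5 CPM in males (-1.26 ± 0.25), is a large part of the sum. Their summed level ranged from 18502 to 27195 CPM in male controls and from 13684 to 16619 CPM in the 5 mg/kg males, which did not overlap, and from 19805 to 28756 CPM in female controls and 17322 to 22286 CPM in the 5 mg/kg females, which did. Pericentral markers fell in 4 of 8 in males and 3 of 8 in females, with sums from 4817 to 9997 CPM in male controls against 1723 to 4272 CPM at 5 mg/kg and from 5054 to 6461 CPM in female controls against 2555 to 5527 CPM. Cyp2e1 is on this list too and makes up most of its sum, so the 2 sums are not separate results. In male controls it averaged 5501 CPM of a mean sum of 6751 CPM, and at 5 mg/kg 2300.5 of 2754 CPM. Periportal markers fell in 7 of 8 in males and 3 of 8 in females, with sums from 13998 to 21788 CPM against 6634 to 10992 CPM in males and from 12408 to 18512 CPM against 8924 to 15586 CPM in females. None of the 8 macrophage, 8 stellate or 7 tested lymphocyte markers passed in either sex at 5 mg/kg, 2 of 8 endothelial markers fell in males, and 1 of 7 tested cholangiocyte markers fell in each sex, Tstd1 in males and Slc10a2, which is also on the uptake list, in females. The summed cholangiocyte level was 90.0 to 233 CPM in male controls and 40.7 to 93.8 CPM in the 5 mg/kg males. The part of these shifts in the transporter values was not tested.

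**Figure D4:**
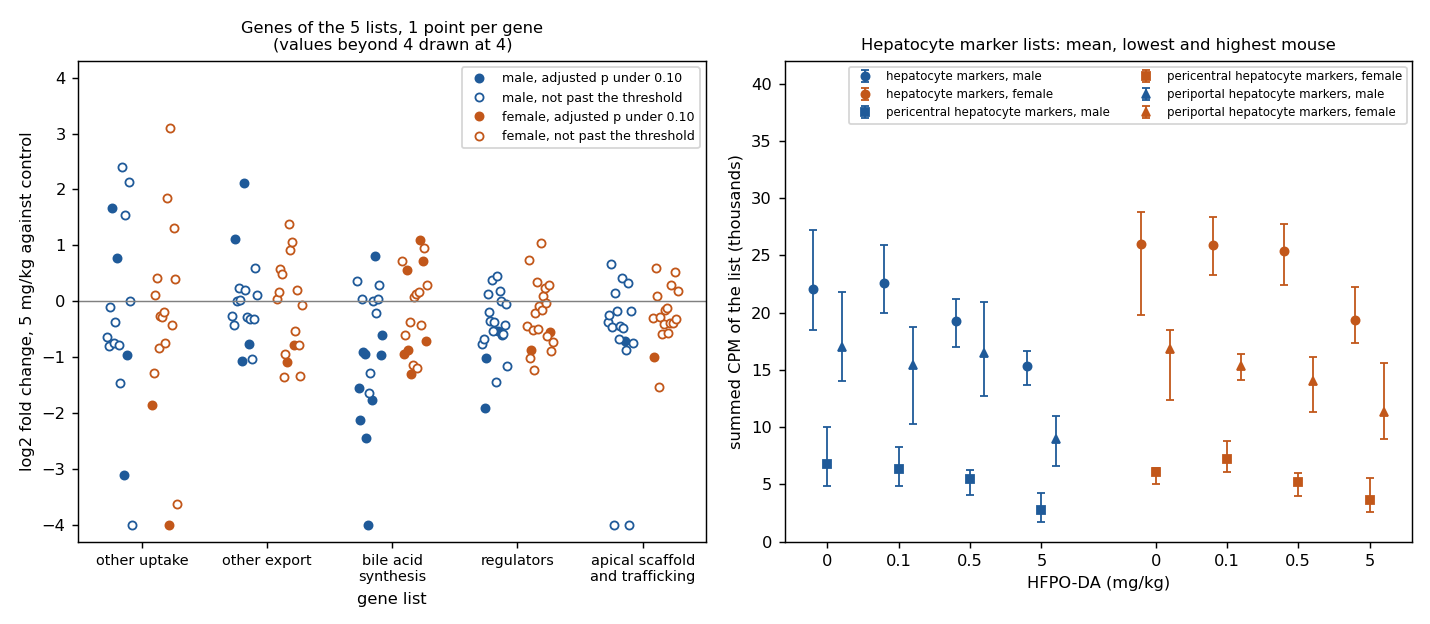
Left, log2 fold change (y axis) at 5 mg/kg of each tested gene in the 5 lists (x axis), by sex, with filled points for an adjusted p under 0.10 and values beyond 4 drawn at 4. Right, summed CPM (y axis, from 0, in units of 1000) of the hepatocyte, pericentral and periportal marker lists by dose (x axis), as the mean with the lowest and highest mouse, where the 5 mg/kg group has the lowest mean of its sex in each list. Cyp2e1 is in both the hepatocyte and the pericentral sum and makes up most of the latter.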

How the data were processed

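The authors counted TempO-Seq reads per probe in 37 liver sections, after alignment of the reads to the probe sequences, and deposited whole-number counts with no normalization. Their processing notes name bcl2fastq 2.17.1.14 and Bowtie. The genome build is not given in the sources used here. The authors left out 3 of 40 mice whose totals lay more than 2 SD below the mean. Each GEO label gave sex and dose. Each sample is 1 mouse, and replicate numbers only name mice.

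Probes were filtered with filterByExpr over 8 groups (18570 of 30146 kept), scaled by TMM and fitted in one model over all groups with edgeR 4.0.16 (quasi-likelihood F test, 2-sided) in R 4.3.3. Adjusted p-values are Benjamini-Hochberg over all 18570 probes, with a threshold of 0.10. CPM are counts per 1000000 counts of the TMM-scaled library, and the SE is the log2 fold change divided by the square root of F. The 95% intervals of fold changes use this SE with a normal quantile and are somewhat narrower than the F test implies. The second Slco1b2 probe in males at 5 mg/kg, for example, had an interval of -0.917 to -0.006 and an unadjusted F test p of 0.0538. Intervals on pooled counts and the floor of 3 counts cover counting error only. Genes outside the 10 were named as the 4 with the smallest adjusted p per list and sex, of which 1 is not reported here. The 3 most like probes, from other genes, were ranked by Pearson r of log2 CPM. Members, lists and motifs were chosen with earlier results of these data known. Alternatives were DESeq2 1.42.0, its size factors, no TMM factor, no filter, each sex apart, gene sums and leaving out each mouse, and, chosen after seeing the data, leaving out the 4 mice under 5000000 counts.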

Additional observations from a re-analysis of the deposited data

Results flagged for a closer look

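Among the lead probes of the 10 genes, 7 of 79 groups of 4 or 5 mice held 1 mouse far from the rest by Dixon's criterion, all of them high. Chance would set apart about 1 in 20 groups, or 3.95 of 79, if the values were normally distributed. Counts near 0 are not, so the 7 cannot be weighed against that number. Slc10a1 read 312 CPM in replicate 2 of the males at 0.1 mg/kg, where the others lay between 239 and 249 CPM. Slco1a1 read 223 CPM in replicate 3 of the males at 0.5 mg/kg, against 112 to 128 CPM in the others. Slco1a4 read 3.53 CPM in replicate 5 of the same group, against 0 to 0.377 CPM. Slco1b2 read 233 CPM in replicate 4 of the females at 5 mg/kg, against 96.0 to 119 CPM, and without this mouse the Slco1b2 comparison in females passed, as it also did without control replicate 3. Abcb4 read 8.85 CPM in replicate 4 of the females at 0.5 mg/kg, against 4.36 to 4.56 CPM. Abcc4 read 0.778 CPM in replicate 2 of the male controls, where the others were at 0, and 11.3 CPM in replicate 4 of the females at 0.1 mg/kg, against 1.65 to 3.56 CPM. The low values of Slco1a4, Abcb4 and Abcc4 rest on few counts per library. In the Abcc4 male controls, with all other mice at 0, any count in 1 mouse would have been flagged.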

How the results depend on the processing

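Of the recomputed counts of calls and lead-probe fold changes, 1714 kept their side of the threshold or stayed near the count, 53 were weaker and 37 stronger. Most of the 1714 were lead-probe values not called in the main fit that stayed uncalled, so the tally says little on how calls held. Lead probes called were 5 of 10 in males at 5 mg/kg, 1 at 0.5 mg/kg, 2 in females at 5 mg/kg and 2 between controls. With 1 mouse left out, Abcc2 in males at 0.5 mg/kg kept its call in 1 of 10 fits, and Slc10a1 in males at 5 mg/kg in 9 of 9. No lead-probe value that passed, before or after, changed sign. Lead-probe values that did not pass did so under some settings (Abcb4 in females at 5 mg/kg, 0.55, and as low as -0.12 with 1 mouse left out). Called transporter probes at 5 mg/kg in males went from 8 to 6 with each sex apart and to 10 with DESeq2. Those at 0.5 mg/kg in males went from 2 to 0 with each sex apart and to 1 with gene sums. At 5 mg/kg in females they went from 3 to 10 with each sex apart, 6 with DESeq2 and 6 without the mice under 5000000 counts. DESeq2 gave 1 in place of 0 in females at 0.1 mg/kg and 2 in place of 4 between controls, and leaving out the shallow mice gave 1 in place of 0 for the difference between sexes at 5 mg/kg. With 1 mouse left out, the ranges were 8 to 10 and 0 to 2 in males at 5 and 0.5 mg/kg, 1 to 7 in females at 5 mg/kg, 0 to 1 for the sex difference at 5 mg/kg and 1 to 4 between controls. The cause of these moves was not tested. No paired analysis was possible because replicate numbers only name mice.

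Over all probes, calls at 5 mg/kg were 2359 in males (1120 with each sex apart) and 839 in females (2093 apart, 1264 with DESeq2). At 0.5 mg/kg they were 116 in males (53 apart, 319 with DESeq2) and 21 in females (34 with no filter, 70 apart, 76 with DESeq2), and at 0.1 mg/kg 0 in males (14 with no filter, 19 with DESeq2) and 0 in females (1 and 3). For the sex difference at 5 mg/kg they were 117 (250 with DESeq2, 187 without shallow mice, 76 with gene sums), at 0.5 mg/kg 2 (14 with no filter, 7 with DESeq2), and between controls 483 (812 with DESeq2, 751 without shallow mice). With no TMM factor, 40% of the calls in that sex difference were higher, against 26.5%. The 5 mg/kg males hold 2 of the 4 shallowest libraries, and Slco1a4, Abcc4 and Abcb4 rest on few counts.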
